A study of Homo sapiens with 4 samples.

Results

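The 31 genes described here encode proteins of homologous recombination and Fanconi repair, with the checkpoint kinase ATR and its partners. They were taken by gene symbol from a list, which was drawn up with earlier results of these data known but sets no threshold on a measured value, and all 31 were found among the 36601 genes of the deposited matrices. Transcripts were measured in U-2 OS, an established human osteosarcoma cell line whose p53 is wild type. In each of 2 experiments, 1 library came from cells irradiated with 4 Gy (IR) and 1 from untreated cells (UT). Single cells were sorted into wells, and the 3′ ends of their RNA were tagged with a barcode for the cell and a unique molecular identifier (UMI) for the molecule. The time after irradiation is 48 h in the series design and in the study's methods, and 24 h in the treatment protocol. No genotype, allele or drug separates the groups, and all 4 libraries come from the same cell line.

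Homologous recombination repairs broken DNA by copying an intact sister chromatid, which is present only once DNA has been replicated. Nucleases first trim the broken ends, RPA coats the exposed strand, and BRCA1, PALB2 and BRCA2 then act together so that the strand can search for the matching sequence. The Fanconi proteins unhook crosslinks between the strands and hand the break to this pathway, and ATR with CHEK1 restrains the cell cycle while single-stranded DNA persists.

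The libraries held 358 and 367 UT cells and 247 and 248 IR cells, with 5736339 to 6810079 gene counts per library and a median of 15662 to 22035 counts per cell. Mesenchymal VIM stood at 1722 to 2215 counts per 1000000 gene counts (CPM) and COL1A1 at 1537 to 2377 CPM, whereas COL1A2 was at 0.511 to 2.64 CPM. CDH1, PECAM1, VWF, PTPRC and CD3E, which mark epithelial, endothelial and blood cells, were at 0 to 4.11 CPM, although the epithelial genes KRT18 (109 to 157 CPM) and EPCAM (13.6 to 17.2 CPM) were measured. In the comparisons of all cells CPM are further scaled by TMM, which adjusts libraries for composition. On that scale CDKN1A, which encodes the p53 target p21, rose from 337 and 283.7 CPM in UT to 942 and 887.8 CPM in IR (log2 fold change 1.56, adjusted p = 0.0176). The libraries shared 161 of 376 distinct cell barcodes in all 4, because the barcodes belong to wells of a plate.

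Promoter sequences are shown for the 3 repair genes with the lowest log2 fold change after IR and for the 2 nearest to 0, among the 27 genes with a RefSeq window (GRCh38.p14) of 250 bases before and 50 bases after the transcription start. Each is written 5′ to 3′ on the strand of the gene, with matches to TTCCCGC or TTGGCGC, 2 forms of the site bound by E2F factors, and to CCAAT, the site bound by NF-Y, in capitals on either strand.
XRCC3: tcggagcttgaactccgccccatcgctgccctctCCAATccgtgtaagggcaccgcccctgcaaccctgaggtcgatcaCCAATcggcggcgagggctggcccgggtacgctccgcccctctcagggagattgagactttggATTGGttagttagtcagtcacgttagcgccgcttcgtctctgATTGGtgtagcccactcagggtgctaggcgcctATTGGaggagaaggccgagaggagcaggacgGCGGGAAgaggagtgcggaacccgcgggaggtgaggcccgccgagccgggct
BLM: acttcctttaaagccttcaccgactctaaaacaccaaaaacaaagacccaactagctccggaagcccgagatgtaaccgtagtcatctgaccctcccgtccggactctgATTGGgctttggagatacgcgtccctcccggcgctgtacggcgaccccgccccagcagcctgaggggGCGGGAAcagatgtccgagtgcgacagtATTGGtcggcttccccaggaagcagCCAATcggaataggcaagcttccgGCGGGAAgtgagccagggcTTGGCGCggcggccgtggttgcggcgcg
RAD54L: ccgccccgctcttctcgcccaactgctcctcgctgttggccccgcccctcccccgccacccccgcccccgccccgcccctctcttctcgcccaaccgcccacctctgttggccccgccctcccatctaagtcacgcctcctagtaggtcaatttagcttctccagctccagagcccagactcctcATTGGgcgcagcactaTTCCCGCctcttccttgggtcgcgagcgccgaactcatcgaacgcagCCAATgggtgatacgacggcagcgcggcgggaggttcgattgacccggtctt
ATR: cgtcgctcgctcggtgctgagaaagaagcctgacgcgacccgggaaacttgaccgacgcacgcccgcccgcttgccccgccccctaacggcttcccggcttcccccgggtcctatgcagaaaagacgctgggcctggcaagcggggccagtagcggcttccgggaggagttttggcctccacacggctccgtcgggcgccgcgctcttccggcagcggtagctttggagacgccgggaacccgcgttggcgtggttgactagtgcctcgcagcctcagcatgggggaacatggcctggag
PALB2: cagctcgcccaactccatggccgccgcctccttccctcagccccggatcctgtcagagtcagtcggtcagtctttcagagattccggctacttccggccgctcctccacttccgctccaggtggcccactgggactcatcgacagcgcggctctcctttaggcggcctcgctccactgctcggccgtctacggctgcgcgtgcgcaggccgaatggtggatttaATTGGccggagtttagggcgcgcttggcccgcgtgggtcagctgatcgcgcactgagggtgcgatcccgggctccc
These windows lie at chr14:103715402-103715701, minus strand (XRCC3), chr15:90717096-90717395, plus strand (BLM), chr1:46247438-46247737, plus strand (RAD54L, the first of 2 windows), chr3:142578684-142578983, minus strand (ATR) and chr16:23641261-23641560, minus strand (PALB2). BLM held 2 matches to TTCCCGC, 1 to TTGGCGC and 3 to CCAAT, whereas XRCC3 held 1 TTCCCGC and 5 CCAAT and RAD54L 1 TTCCCGC and 2 CCAAT. The window of PALB2 held 1 CCAAT, and that of ATR none of these. Of the 27 genes, 14 held TTCCCGC or TTGGCGC in at least 1 window (41.7% of their 36 windows), compared with 9.23% of all 35116 RefSeq windows of the same length. TTCCCGC was found for 11 genes (33.3% of their windows, against 6.55% of all windows). TTGGCGC was found for 4 genes (11.1% against 3.04%) and CCAAT for 13 (47.2% against 34.6%). The cell cycle motif TTTGAA was found for 2 genes (5.56% against 15.2%). TTCGAA, which reads the same on both strands, was found for 0 (0% against 1.45%). The other 13 genes had neither of the E2F-type sequences in these windows. Their log2 fold changes ran from -0.91 (TIMELESS) to 0.20 (RAD51C), and those of the 14 with a match from -1.04 (XRCC3) to -0.18 (RAD52). The 2 ranges thus overlapped, and whether a match goes with the fold change was not tested.

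The first comparison asked how transcripts of these genes differed between irradiated and untreated cells. Relative to the total of each library, 29 of the 31 had a log2 fold change of IR over UT below 0, a sign that changed for 10 genes when libraries were scaled by cell number and for 16 when scaled by spike-in RNA. The median was -0.65, against -0.0032 over all 14647 genes tested. In these summed counts, fewer cells of a kind and less RNA per cell cannot be told apart. All 31 genes passed the filter on low counts. The fit without the experiment as a term called 3 of them lower and 0 higher at an adjusted p under 0.05, beside 0.847% of all genes called lower and 1.63% called higher. The experiment number pairs the libraries, and with it as a replicate block the fit called 21 lower and 0 higher, beside 12.9% and 14.3% of all genes. That fit rests on 1 residual degree of freedom. DESeq2 called 8 lower and 0 higher (1.54% and 2.27% of all genes), and edgeR with no filter on low counts called 16 lower and 0 higher (2.24% and 3.57%). In 23 genes each UT library was above each IR library, 1 gene (RAD51C) showed the reverse and 7 overlapped, whereas 24.2% of all genes separated in each direction. Log2 fold changes were below 0 in both experiments for 26 genes, with medians of -0.65 in experiment 1 and -0.67 in experiment 2. Leaving out any of the 4 libraries leaves 1 library in a group, so only effect sizes are given for those fits. For the 3 genes called by the unblocked fit, log2 fold changes then ran from -1.08 to -0.97 (BLM), -0.98 to -0.75 (FANCI) and -0.92 to -0.84 (CHEK1).

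**Figure D1:**
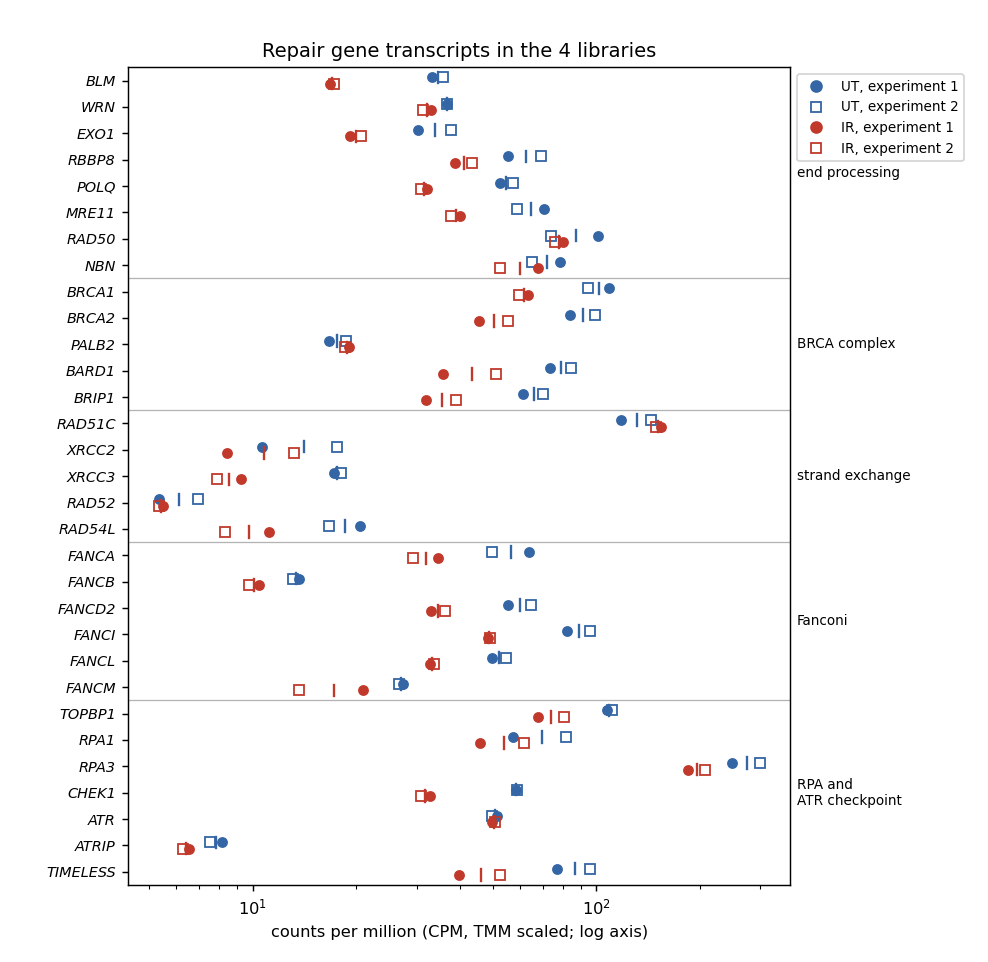
Transcript levels (CPM, scaled by TMM, log axis) of the 31 repair genes in each library, with circles for experiment 1, squares for experiment 2, blue for UT, red for IR and vertical ticks for group means (n = 2). On this scale, which is relative to the library total, most genes sit further left in IR, whereas ATR, PALB2 and RAD50 overlap and RAD51C lies to the right.

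In the end-processing group, 1 of 8 genes was called lower, and 5 with the block. BLM, a RecQ helicase that takes part in end resection and in dissolving joined DNA molecules, had 33.3 and 35.9 CPM in UT and 16.8 and 17.3 CPM in IR. Its log2 fold change was -1.02 ± 0.17 (SE, n = 2 against 2, edgeR adjusted p = 0.0389), so that the levels in UT were 2.03 times those in IR. EXO1, the nuclease of long-range resection, stood at 30.3 and 37.7 CPM in UT and 19.2 and 20.7 CPM in IR (log2 fold change -0.77). POLQ, the polymerase of an alternative end-joining route, was at 52.3 and 57.2 CPM in UT and 32.2 and 30.9 CPM in IR (log2 fold change -0.80). Both genes separated the groups without overlap, with adjusted p of 0.0889 and 0.0563 without the block and 5.3e-05 and 1.5e-06 with it.

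RBBP8, which encodes the resection factor CtIP, had 55.5 and 69.2 CPM in UT and 38.7 and 43.5 CPM in IR (log2 fold change -0.60, adjusted p = 0.141, with the block 9.4e-05). MRE11, the nuclease that starts resection, had 70.2 and 58.9 CPM in UT and 40.3 and 37.7 CPM in IR (log2 fold change -0.73, adjusted p = 0.0796, with the block 2.9e-06). The other members of the MRE11 complex showed smaller differences. RAD50, its ATPase, was at 100.9 and 73.6 CPM in UT and 80.2 and 76.0 CPM in IR (log2 fold change -0.16), and NBN was at 78.6 and 64.9 CPM in UT and 67.5 and 52.6 CPM in IR (log2 fold change -0.26). The groups overlapped in both, and neither was called in either fit. In both experiments NBN was lower in IR (log2 fold change -0.22 and -0.30), as was MRE11. The helicase WRN was also uncalled, at 36.9 and 36.7 CPM in UT and 33.1 and 31.4 CPM in IR. Differences of RAD50 and NBN from MRE11 were not tested as such.

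Of the 5 genes of the BRCA complex, none was called without the block (the smallest adjusted p, for BRIP1, was 0.0563) and 4 were called lower with it. BRCA1, the ubiquitin ligase that promotes resection and recruits PALB2, had 108.7 and 94.5 CPM in UT and 63.2 and 59.7 CPM in IR (log2 fold change -0.73 ± 0.16, adjusted p = 0.0672, with the block 1.5e-07). Its partner BARD1 had 73.4 and 84.3 CPM in UT and 35.8 and 51.2 CPM in IR (log2 fold change -0.86, adjusted p = 0.0888, with the block 1.3e-08). Each UT library was thus above each IR library in both subunits of the ligase.

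BRCA2, a tumour suppressor that acts at resected DNA, was at 84.1 and 98.8 CPM in UT and 45.6 and 55.3 CPM in IR (log2 fold change -0.86, adjusted p = 0.0601, with the block 3.3e-09). BRIP1, a helicase that binds BRCA1, was at 61.4 and 70.2 CPM in UT and 32.03 and 38.9 CPM in IR (log2 fold change -0.89, with the block 2.2e-08). PALB2, which joins BRCA1 to BRCA2, did not follow them, with 16.7 and 18.6 CPM in UT and 19.0 and 18.5 CPM in IR (log2 fold change 0.09 ± 0.19, adjusted p = 0.873).

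The strand-exchange factors were mixed. XRCC3, which acts in strand exchange, had the lowest log2 fold change of the 31 genes, at 17.2 and 18.0 CPM in UT and 9.25 and 7.85 CPM in IR (-1.04 ± 0.22, adjusted p = 0.0647, with the block 4.3e-05). RAD54L, a motor protein that drives strand exchange, was at 20.6 and 16.7 CPM in UT and 11.1 and 8.32 CPM in IR (log2 fold change -0.94, adjusted p = 0.107, with the block 1.4e-04). These were the only calls with the block in this group of 5. RAD51C, which binds XRCC3 in a complex, had 118.1 and 144.6 CPM in UT and 154.0 and 148.8 CPM in IR (log2 fold change 0.20 ± 0.16, adjusted p = 0.577, with the block 0.119). Its libraries thus lay in the opposite order to those of XRCC3. XRCC2 and RAD52 had groups that overlapped, with log2 fold changes of -0.39 and -0.18.

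In the Fanconi group, log2 fold changes of the 6 genes ran from -0.87 to -0.40, and 1 gene was called lower without and 5 with the block. FANCI, which forms with FANCD2 the clamp that is ubiquitinated at stalled forks, had 81.9 and 96.1 CPM in UT and 48.3 and 49.0 CPM in IR (log2 fold change -0.87 ± 0.16, adjusted p = 0.0475, with the block 3.3e-09). FANCD2 had 55.3 and 64.7 CPM in UT and 33.1 and 36.3 CPM in IR (log2 fold change -0.79, adjusted p = 0.0653, with the block 7.7e-07). The log2 fold changes of the clamp's subunits lay close to each other, although their difference was not tested.

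FANCA, a scaffold of the Fanconi core complex, was at 63.5 and 49.6 CPM in UT and 34.6 and 29.2 CPM in IR (log2 fold change -0.82, adjusted p = 0.0812, with the block 6.2e-07). FANCL, its ubiquitin ligase, was at 49.8 and 54.5 CPM in UT and 32.9 and 33.6 CPM in IR (log2 fold change -0.65, adjusted p = 0.0888, with the block 7.2e-05). FANCM, the translocase that anchors the complex, was at 27.3 and 26.7 CPM in UT and 20.9 and 13.7 CPM in IR (log2 fold change -0.65, adjusted p = 0.211, with the block 0.0014). In FANCM the 2 IR libraries stood further apart than in the other Fanconi genes, and its log2 fold change was -0.99 without IR experiment 1 and -0.37 without IR experiment 2. FANCB, another core subunit, was not called, at 13.7 and 13.1 CPM in UT and 10.5 and 9.73 CPM in IR.

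Among the 7 genes of the RPA and ATR checkpoint group, 1 was called lower without and 5 with the block. CHEK1, the kinase that ATR activates, had 58.4 and 58.6 CPM in UT and 32.7 and 30.9 CPM in IR (log2 fold change -0.88 ± 0.16, adjusted p = 0.0439, with the block 9.1e-08). ATR itself had 51.4 and 49.9 CPM in UT and 49.8 and 50.7 CPM in IR (log2 fold change -0.01 ± 0.15, adjusted p = 0.985), and its partner ATRIP had a log2 fold change of -0.29 and was not called. The kinase and its target thus gave the value nearest to 0 and one of the 3 calls.

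TIMELESS, of the complex that protects the fork, had 77.0 and 96.0 CPM in UT and 39.7 and 52.6 CPM in IR (log2 fold change -0.91, adjusted p = 0.0728, with the block 1.1e-09). TOPBP1, the activator of ATR, had 107.1 and 110.9 CPM in UT and 67.7 and 80.4 CPM in IR (log2 fold change -0.56, adjusted p = 0.123, with the block 2.2e-05). The RPA subunits followed with smaller differences. RPA3 was at 247.6 and 300.1 CPM in UT and 184.8 and 207.4 CPM in IR (log2 fold change -0.48, adjusted p = 0.188, with the block 2.1e-05). RPA1 was at 57.3 and 81.6 CPM in UT and 45.7 and 61.7 CPM in IR (log2 fold change -0.37, adjusted p = 0.464, with the block 0.0143), and its groups overlapped. Its log2 fold change ran from -0.61 without IR experiment 2 and -0.60 without UT experiment 1 to -0.18 without IR experiment 1 and -0.09 without UT experiment 2.

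These directions are relative to the total of each library. IR cells held more counts than UT cells, and scaling by cell number moved the median of all genes by 0.54 and scaling by the spike-in RNA by 0.74 on the log2 scale. Per cell, the median of the 31 genes was -0.12 with 19 below 0, 0 called lower and 1 called higher (RAD51C, log2 fold change 0.73, adjusted p = 0.0437), beside 0.321% of all genes called lower and 22.7% called higher. By spike-in RNA the median was 0.11 with 13 below 0, and edgeR called 0 of the 31 and 0 of all 14647 genes, with unadjusted p under 0.05 for 0 and 17. Relative to the median of all genes, the repair genes stood at -0.65, -0.65 and -0.62 under the total, per-cell and spike-in scalings. A change of scaling moves all genes by nearly the same amount, so these values could hardly differ and test nothing about the scaling.  None of these genes exceeded 5.44 counts per cell on average.

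For 13 of the 31 genes another gene overlaps the last 1000 bases, where 3′ tags fall, and no source used here says how the counting treated strand. Of these neighbours, the 6 that could be tested (KLC1 at XRCC3, LRRC41 at RAD54L, ZNF276 at FANCA, POLG at FANCI, VRK2 at FANCL and OSGIN2 at NBN) had log2 fold changes of -0.27 to 0.31 and none was called without the block (smallest adjusted p 0.387), whereas VRK2 was with it (0.0488).

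Cells were next placed in 3 cell cycle states by scores of 37 S genes and 54 G2/M genes, none of which is among the 31, after each cell had been thinned to 8000 UMIs. A state is a range of scores, and 9.48% to 13.2% of cells lay within 0.05 of a limit. Cells with low scores for both lists made up 16.5% and 15.4% of UT and 48.9% and 48.7% of IR cells, S cells 35.7% and 41.0% against 19.9% and 15.9%, and G2/M cells 47.7% and 43.5% against 31.2% and 35.3%. Exact 95% binomial intervals for the low-score share were 12.7% to 20.9% and 11.9% to 19.6% in UT and 42.3% to 55.6% and 42.1% to 55.3% in IR, which cover counting error only. These shares follow from the scoring genes and are given as a description.

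On CPM of each state's own total, without TMM, most repair genes were far lower in the low-score cells than in S or G2/M cells of the same library. UT libraries had a median log2 ratio of S to low-score cells of 1.63 and 1.64 and IR libraries of 1.93 and 1.71, against -0.07 to -0.04 for all genes. For G2/M to low-score cells the ratios were 1.37 and 1.64 (UT) and 1.67 and 1.65 (IR). In both UT libraries 18 genes had their highest level in S cells, 2 (FANCD2 and FANCM) in G2/M cells and 1 (RAD50) in low-score cells, and 15 were highest in S cells in all 4 libraries. No minimum difference was set, and these counts were not made over all genes. The 18 include ATR, at 51.5 CPM in S and 51.4 CPM in G2/M cells of UT experiment 1. The median log2 ratio of G2/M to S cells in UT was -0.24 and -0.26, against -0.0079 and -0.020 for all genes.

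Several genes had few counts in low-score cells. EXO1 had 2.26 and 2.19 CPM in low-score and 45.8 and 54.0 CPM in S cells of UT, and 1.18 and 2.27 CPM against 40.4 and 53.6 CPM in IR. POLQ had 2.26 and 5.47 CPM in low-score and 65.6 and 59.5 CPM in S cells of UT, and 1.96 and 1.89 CPM against 63.6 and 50.4 CPM in IR. XRCC2 had 0 counts in the low-score cells of both UT libraries, where 3 counts would be 3.38 and 3.29 CPM, and 17.2 and 23.1 CPM in S cells. In IR its low-score cells had 0.785 and 0.379 CPM. BRCA1 had 19.2 and 15.3 CPM in low-score, 148.3 and 122.0 CPM in S and 105.2 and 90.5 CPM in G2/M cells of UT. In IR it had 10.6 and 9.09 CPM in low-score cells. In each library these 4 genes were thus lower in low-score than in S cells.

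Mean log2 ratios of S to low-score cells in UT were lower for RAD50 (-0.13), NBN (0.28), RAD52 (0.34) and ATR (0.37), and RAD51C had 0.80. ATR had 39.5 and 39.4 CPM in low-score, 51.5 and 51.1 CPM in S and 51.4 and 49.9 CPM in G2/M cells of UT. In IR it had 54.2 and 53.4 CPM in low-score, 40.4 and 50.4 CPM in S and 52.3 and 52.3 CPM in G2/M cells. Low-score cells were thus highest in both IR libraries, by a small margin over G2/M cells. For ATR, edgeR tests of a different IR effect from low-score cells gave adjusted p of 0.474 (S) and 0.614 (G2/M). RAD50 had 119.6 and 84.3 CPM in low-score, 108.8 and 77.9 CPM in S and 83.1 and 62.5 CPM in G2/M cells of UT. RAD51C had 88.0 and 72.3 CPM in low-score and 125.9 and 153.9 CPM in S cells of UT.

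**Figure D2:**
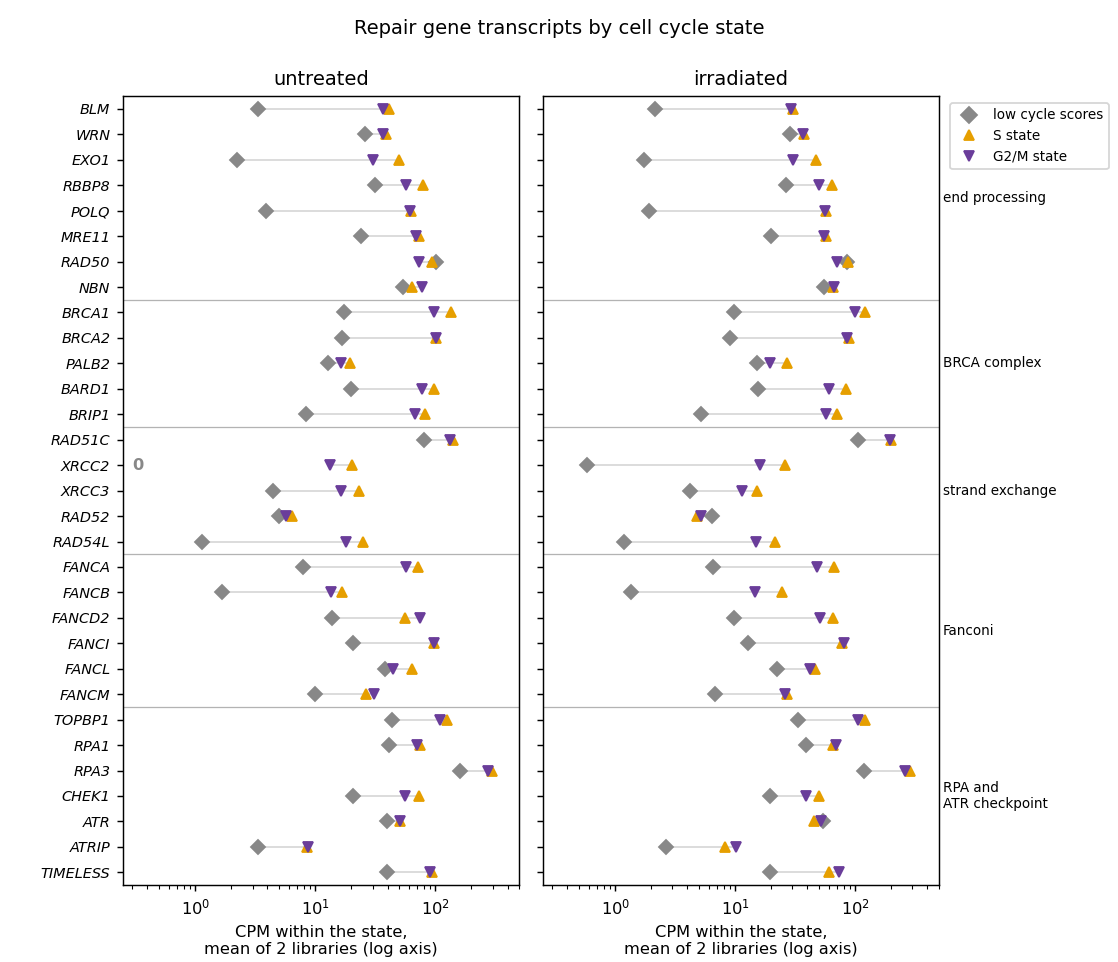
CPM of each repair gene within the 3 cell cycle states (log axis), as the mean of the 2 UT libraries on the left and the 2 IR libraries on the right. A bold 0 marks a gene with no count (XRCC2). The grey diamonds of low-score cells lie to the left of the S and G2/M symbols for most genes, and together with them for ATR, RAD50 and RAD52.

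In single cells the summed UMIs of the 31 genes, out of 8000, had a median of 14 and 15 in UT and 9 and 9 in IR over all cells. Within states the medians lay closer, at 6 and 7 in UT against 5 and 6 in IR for low-score cells, 17 and 17 against 15 and 16 for S cells, and 14 and 15 against 13 and 13.5 for G2/M cells. In every state the quartile ranges of the groups overlapped.

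**Figure D3:**
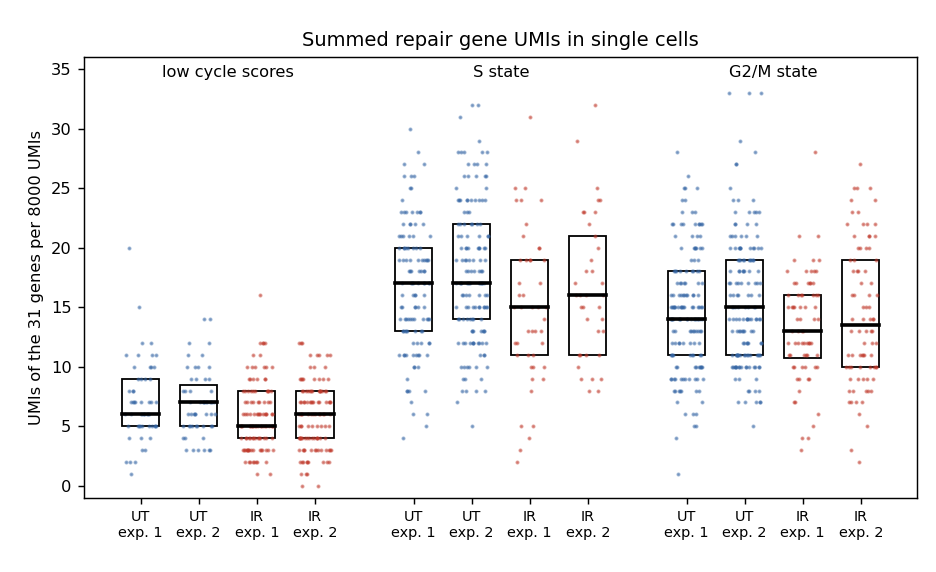
Summed UMIs of the 31 repair genes in each cell thinned to 8000 UMIs (points), by state and library, with boxes from the lower to the upper quartile and a line at the median. Low-score cells have medians of 5 to 7, S cells 15 to 17 and G2/M cells 13 to 15 UMIs.

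When IR was compared with UT within each state, no repair gene was called without the block. The median log2 fold change was -0.31 over the 23 genes testable in low-score cells, -0.22 over 30 in S cells and -0.25 over 31 in G2/M cells. Unadjusted p was under 0.05 for 4, 3 and 3 of these genes, beside 1221 of 11939, 1235 of 11512 and 1735 of 12647 over all genes. DESeq2 called 0 of them in each state. Of all genes, the fit without the block called 0.101%, 0.252% and 0.308% lower and 0.243%, 0.695% and 0.973% higher. The 8 genes not tested in low-score cells (XRCC2, XRCC3, RAD54L, FANCB, BLM, EXO1, POLQ and ATRIP) had too few counts there.

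With the block, 3, 2 and 3 genes were called lower in low-score, S and G2/M cells (3.69%, 3.42% and 6.82% of all genes), and 0, 1 and 1 higher (4.06%, 4.82% and 9.3%). Levels are again CPM of each state's total. TIMELESS was lower in low-score cells with the block, with 33.9 and 46.0 CPM in UT and 18.1 and 21.2 CPM in IR (log2 fold change -1.07, adjusted p = 0.205, with the block 0.0025), and in S cells, with 74.9 and 111.3 CPM against 59.3 and 61.2 CPM (log2 fold change -0.71, adjusted p = 0.291, with the block 0.0079). CHEK1 was lower with the block in S cells, with 78.1 and 67.6 CPM against 44.7 and 55.8 CPM (log2 fold change -0.62, adjusted p = 0.382, with the block 0.0301), and in G2/M cells, with 52.8 and 59.2 CPM against 37.8 and 40.4 CPM (log2 fold change -0.60, adjusted p = 0.212, with the block 0.0062). These were the genes called lower in more than 1 state. Without UT experiment 2 the log2 fold change of TIMELESS in S cells was -0.42.

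RAD51C was the gene called higher with the block, in S cells at 125.9 and 153.9 CPM against 185.6 and 208.2 CPM (log2 fold change 0.41, adjusted p = 0.505, with the block 0.0480) and in G2/M cells at 116.3 and 149.7 CPM against 201.7 and 187.0 CPM (log2 fold change 0.46, adjusted p = 0.316, with the block 0.0023). The other blocked calls were lower, FANCL (-0.83, with the block 0.0330) and RPA3 (-0.49, with the block 0.0247) in low-score cells, and FANCD2 (-0.61, with the block 0.0019) and BARD1 (-0.46, with the block 0.0228) in G2/M cells, each given as log2 fold change and adjusted p. In G2/M cells BARD1 was at -0.23 without IR experiment 1 and -0.75 without IR experiment 2, and RAD51C at 0.30 without UT experiment 1. Tests of whether the effect of IR differed between states called 0 of 31 genes for S against low-score cells and 0 for G2/M against low-score cells, with unadjusted p under 0.05 for 2 and 3. Among all genes 0.0521% and 0.0894% were called lower and 0.276% and 0.38% higher in these tests. Unadjusted p was under 0.05 in them for 1077 and 1176 of all 13429 genes.

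The part of the difference that goes with the state shares was then measured by weighting the IR cells of each experiment to the state shares of its UT library, on log2(CPM + 0.5) and with no test. The median of the 31 genes was -0.59 before and -0.14 after weighting, whereas the median of all genes was 0.08 and 0.06. In experiment 1 it was -0.58 and -0.16, and in experiment 2 it was -0.60 and -0.19. Genes below -0.5 numbered 18 before and 1 after (XRCC3, -0.52), and 25 of 31 moved towards 0, 23 of them in both experiments. These counts were not made over all genes. The states were set by S and G2/M genes, with whose sums most of the 31 correlate across cells, so some movement follows from how the states were set.

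Single genes differed in how much remained. EXO1 went from -0.69 to -0.03, BRCA1 from -0.65 to -0.07 and POLQ from -0.70 to -0.12. CHEK1 (-0.81 to -0.49), TIMELESS (-0.83 to -0.47) and BLM (-0.91 to -0.38) stayed further from 0. RAD51C went from 0.28 to 0.52, and XRCC2 (-0.31 to 0.34), FANCB (-0.30 to 0.34) and ATRIP (-0.22 to 0.10) went from below to above 0.

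**Figure D4:**
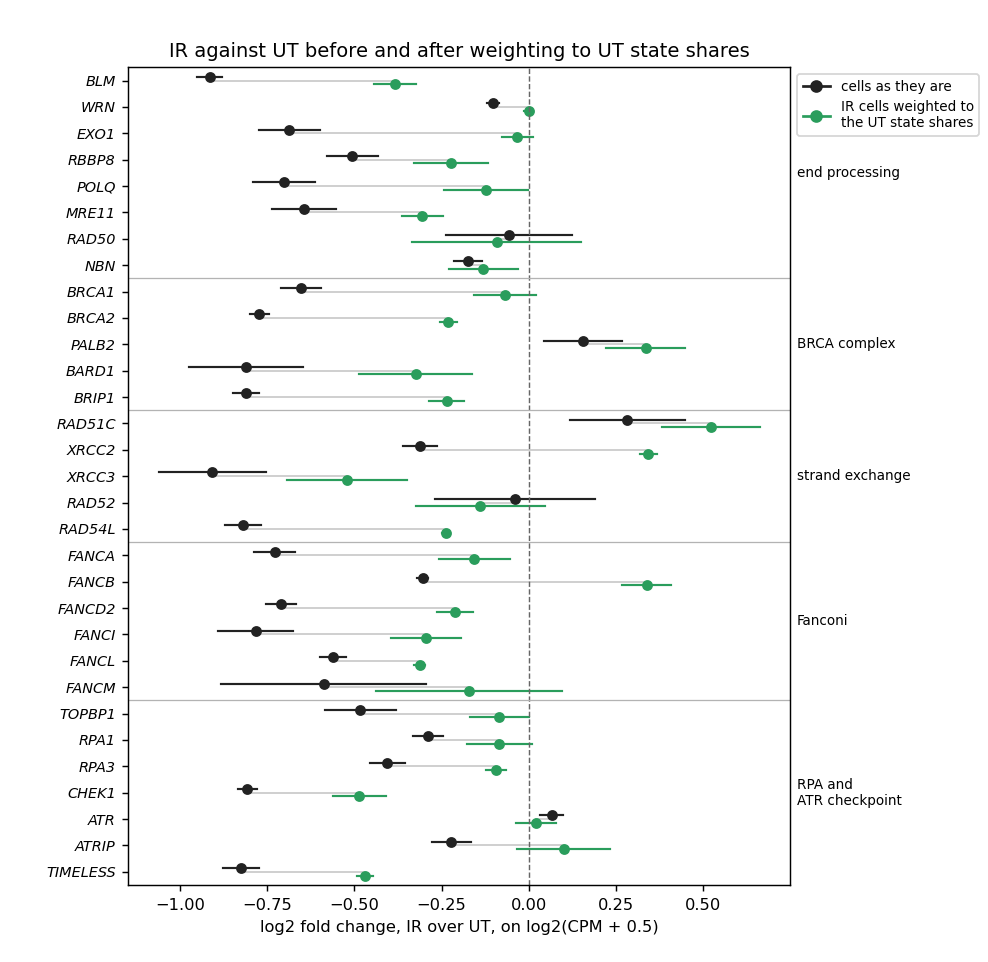
Log2 fold change of IR over UT for each repair gene on log2(CPM + 0.5), before (black) and after (green) weighting the IR cells to the UT state shares. Points are means of the 2 experiments and bars join the values of the experiments. The median goes from -0.59 to -0.14, and RAD51C lies furthest right after weighting at 0.52.

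Across cells, levels of most repair genes went with the sum of the S genes more than with that of the G2/M genes in UT. The correlations are across the cells of 1 library, which share its depth, and are given as a description on log2(count + 1) of thinned cells. Over 333 and 356 UT cells the median r with the S sum was 0.201 and 0.207 and with the G2/M sum 0.106 and 0.110, and over 231 and 232 IR cells the medians were 0.254 and 0.240 with S and 0.230 and 0.199 with G2/M. The medians over all genes were between -0.0083 and -2.4e-04. In both UT libraries 23 genes had a higher r with S, 2 (FANCD2 and ATR) with G2/M, and 6 were mixed, compared with 13, 4 and 14 in IR. No minimum difference was set. ATR was near 0 in UT, with r of 0.034 and -0.0101 with S and 0.0503 and -0.0030 with G2/M. FANCD2 had 0.215 and 0.257 with S and 0.218 and 0.311 with G2/M in UT.

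BRCA1 gave the highest r with the S sum in each of the 4 libraries, 0.419 and 0.385 in UT and 0.525 and 0.451 in IR. With the G2/M sum its mean r was 0.187 in UT and 0.450 in IR. RAD50, RAD52 and ATR had r between -0.0978 and 0.0541 with S. Summed over the 31 genes, r with the S sum was 0.740 and 0.760 for UT cells and 0.704 and 0.722 for IR cells, and with the G2/M sum 0.452 and 0.493 for UT and 0.684 and 0.675 for IR. The S and G2/M sums themselves had r of 0.542 and 0.523 in UT and 0.734 and 0.751 in IR. Between pairs of repair genes the median r over 465 pairs was 0.0377 to 0.0712, and the pair with the highest r in its lowest library was BARD1 and BRIP1 (0.175 to 0.309).

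**Figure D5:**
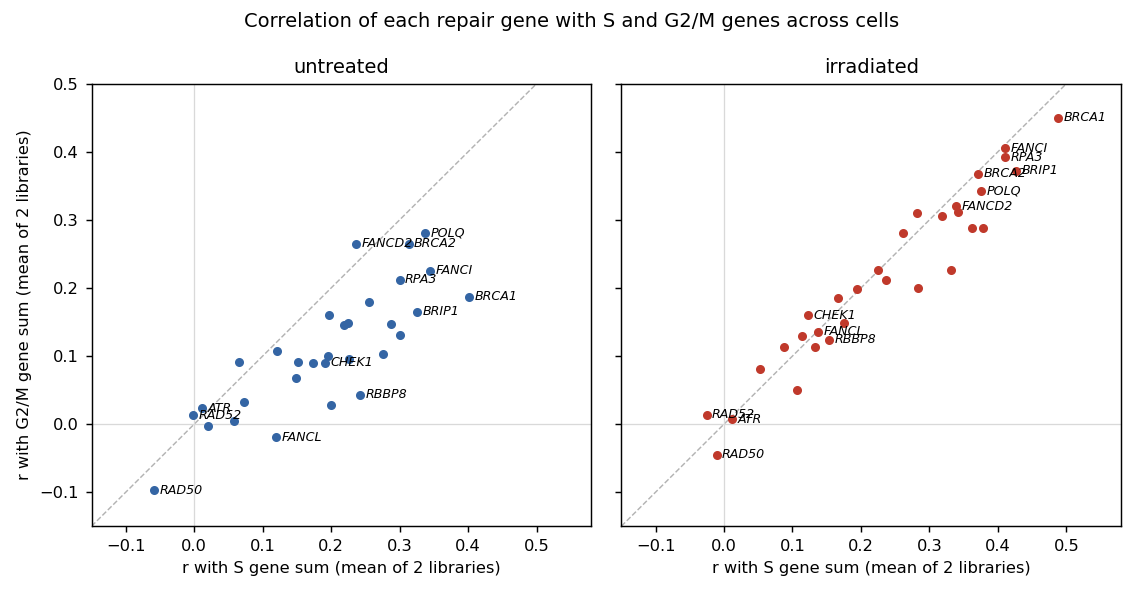
Pearson r of each repair gene with the summed S genes (x axis) and the summed G2/M genes (y axis) across thinned cells, as the mean of 2 libraries, for UT on the left and IR on the right, with the dashed line at equality. Most UT points lie below the line, whereas IR points lie nearer to it, with BRCA1 furthest right in both.

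Other genes of the pathway, 60 by a list that holds none of the 31, were matched for 59 and tested for 58. In all cells 2 were called lower and 0 higher, beside 0.847% and 1.63% of all genes. With the block 27 were called lower and 1 higher, beside 12.9% and 14.3% of all genes. Their median log2 fold change without the block was -0.24. RMI2, a partner of BLM in dissolving joined DNA, had 41.5 and 45.7 CPM in UT and 19.4 and 18.2 CPM in IR (log2 fold change -1.22, adjusted p = 0.0260). FANCG, a core subunit that binds FANCA, had 82.7 and 82.9 CPM in UT and 45.6 and 41.9 CPM in IR (log2 fold change -0.92, adjusted p = 0.0389). The next by p, USP1, which removes ubiquitin from the FANCD2 clamp, and MMS22L, which assists recombination at forks, had adjusted p of 0.0504 and 0.0568 and were called with the block (8.3e-10 and 3.2e-07).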

How the data were processed

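Single-cell RNA was prepared by SORT-seq. The authors aligned reads to GRCh38 with STARsolo, without intronic or multi-gene reads; the submitters' processing notes also name Seurat 5. The deposited matrices hold expected counts, UMI counts corrected by the authors for collisions among 4096 UMI sequences, where plain counts had been assumed. They were summed per library and rounded. The 92 spike-ins were left out. No deposited barcode was dropped for the tests in all cells. For states, cells under 8000 UMIs (25, 11, 16 and 16 in UT experiments 1 and 2 and IR experiments 1 and 2) were left out, and no doublet caller was run.

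The robust quasi-likelihood test of edgeR 4.0.16 (R 4.3.3) compared libraries after TMM scaling and filterByExpr. Group was the only term, and p-values were adjusted by Benjamini-Hochberg over all genes, with calls under 0.05. States were scored with scanpy 1.11.5. Differences between states were fitted with terms for library, state and the interaction of state with IR. DESeq2 1.42.0, other scalings, filters and state settings were alternatives. Titles give the experiment number, which pairs the libraries: libraries of 1 experiment deviated from their group means together (r = 0.635), and the block lowered the biological coefficient of variation from 0.177 to 0.0727. The 2 experiments are the replicates, so p-values measure only how much these libraries vary. Values in every library are given for genes called with or without the block and for the gene with the smallest p in each role group; a few others were named after their values were seen. The repair genes, lists and motifs were chosen with earlier results of these data known. Simulated 2-fold changes in 200 genes were recovered for 61.0% of those genes in all cells, 37.0% in low-score, 51.0% in S and 54.0% in G2/M cells without the block, and for 81.8% in all cells with it. The simulations without the block had no difference between experiments and a lower coefficient of variation than these libraries. Their recovery may therefore be higher than in the data. Gene positions came from GENCODE 44. Counts of 1220 cells entered.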

Additional observations from a re-analysis of the deposited data

How the results depend on the processing

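In all cells, 21 repair genes were called lower with the replicate block, 8 by DESeq2 (1.54% of all genes) and 16 with no filter on low counts (2.24%), compared with 3 in the fit reported. Scaling by cell number gave 0 lower and 1 higher, where 22.7% of all genes were called higher, and scaling by spike-ins gave 0 lower, as for all genes. Spike-in counts differed strongly between the experiments, so the 0 calls of that scaling decide nothing about the repair genes. Within states the replicate block gave 3 lower in low-score cells, 2 lower and 1 higher in S cells, and 3 lower and 1 higher in G2/M cells, where the unblocked fits gave 0. Among the 21 genes called with or without the block, scaling by cell number turned the log2 fold changes of RPA1 (0.16) and RPA3 (0.053) positive, and scaling by spike-ins did so for FANCL (0.12), FANCM (0.27), EXO1 (0.027), RBBP8 (0.18), TOPBP1 (0.11), RPA1 (0.38), RPA3 (0.29) and POLQ (0.0035). For these 21 genes, 231 alternative values comprised 165 on the same side of the threshold, 37 newly past it, 19 no longer past it and 10 of opposite sign. Because only 3 of the 21 genes were called in the fit reported, the same side of the threshold often means still uncalled. BRCA1, with a log2 fold change of -0.013 when scaled by spike-ins, is counted there. The weighted median was -0.19 in experiment 2 alone. The mean over libraries of the median r was 0.174 with S genes at 5000 UMIs and 0.344 with no thinning, against 0.225, and 0.247 with G2/M genes with no thinning, against 0.161. The causes were not tested. Without the block, 37.0% to 54.0% of simulated 2-fold changes were recovered within states, in simulations with less variation than these libraries.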
